A study of Arabidopsis thaliana with 2 samples.

Results

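Genes with distant tandem polyadenylation sites are described here, that is, genes whose transcripts ended at 2 separate places downstream of the stop codon, far enough apart to give a short and a long 3′ untranslated region (UTR). They were chosen from the read ends themselves. A gene qualified if it was a nuclear protein-coding gene with at least 20 same-strand reads carrying a 3′ label, and if 2 sites past the last annotated stop codon lay at least 100 nt apart and each held at least 20% of those reads. Ends within 10 nt of each other were merged into 1 site, whose position was its most-read nucleotide. Of 27444 annotated nuclear protein-coding genes, 4782 had enough reads, and 183 of these qualified. The pair of sites in each gene is called proximal, nearer the stop codon, and distal, farther from it, and the distal share is the number of reads at the distal site as a percent of the reads at both. Since the number of reads, the distance and the shares chose the genes, these values are given as a description.

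The reads came from inflorescences of wild-type Arabidopsis thaliana of the Col-0 accession, with floral buds that had not yet opened, and no treatment was applied. There were 2 biological replicates, each giving 1 PacBio Iso-seq library of full-length non-chimeric reads, and there was 1 condition, so no groups of samples were compared. A library of whole inflorescences mixes all cell types of the bud, so that a shift in cell types and a shift of site use within a cell type cannot be told apart. Replicate 1 held 267716 aligned reads and replicate 2 held 255215, of which 229201 and 216384 were nuclear and carried a 3′ label. Every read had ended in a poly(A) tail, and Bookend, the authors' software, removes the label where the genome at the end is A-rich and the tail could come from mispriming. The 183 genes took 5922 of the labelled reads in replicate 1 and 5686 in replicate 2. Transcripts of the floral homeotic genes AP1, AP3, PI, AG and SEP3 were all present, at 15 to 81 reads per library.

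A nascent messenger RNA is cut and given a poly(A) tail by a complex that reads several short elements around the cut. In plants these are a loosely conserved A-rich element just upstream of the cut, for which AAUAAA is the strongest form, a U-rich or UG-containing element farther upstream, and U-rich stretches on both sides of the cut. When a gene carries more than 1 such set of elements past its stop codon, the choice between them changes the length of the 3′ UTR and leaves the protein as it is, while binding sites for proteins and small RNAs lying between the sites are kept or lost.

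Sequences just upstream of the paired sites are shown for 6 genes, to show how little the sites share letter by letter. The first 5 genes are the 5 with the most reads, and the last has the second-largest distance. Each line is 30 bases of the RefSeq genome TAIR10.1 on the strand of the gene, 5′ to 3′, ending at the most-read 3′ end. Capitals mark the occurrence nearest to the site of AATAAA or of a hexamer that differs from it by 1 base, searched between 29 and 10 bases upstream, and a line without capitals has none there.
ATA20 proximal, chr3:5202963-5202992, forward strand: tcactcatAATGAAatctattttggtttat
ATA20 distal, chr3:5203163-5203192, forward strand: aatgagtttaAATAGAccggtccacaaatc
PPME1 proximal, chr1:26343478-26343507, reverse strand: tcacttttaacaAAAAAAttatttttacat
PPME1 distal, chr1:26343370-26343399, reverse strand: agaggtcgataatctgagaaacatataagc
PRXR1 proximal, chr4:11646392-11646421, reverse strand: ttatttaatctaaatgttggctcttcgttg
PRXR1 distal, chr4:11646272-11646301, reverse strand: tgataAGTAAAcatgtccgaatcttttgat
AVP1 proximal, chr1:5402330-5402359, forward strand: agaaccaaccaaatgatgtttctttctctc
AVP1 distal, chr1:5402485-5402514, forward strand: gagacataattggaatttattgttactgtt
EXPA6 proximal, chr2:12431718-12431747, reverse strand: AATATAtatatttatgttttttaagagacc
EXPA6 distal, chr2:12431420-12431449, reverse strand: ttataTATAAAtgtgtgtatgtttatggtt
AT3G21215 proximal, chr3:7442619-7442648, reverse strand: tgtttgaattatataggagtttggtttgct
AT3G21215 distal, chr3:7441828-7441857, reverse strand: tcaaatgagaaagtttctcttccattttca

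AATAAA itself stood in none of these 12 windows, although at the proximal site of ATA20 it was found when the search reached 40 nt upstream, beyond the printed bases. Both sites of ATA20 and of EXPA6 had a hexamer 1 base away from it, PPME1 had one at the proximal site, PRXR1 at the distal site, and AVP1 and AT3G21215 at neither.

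The 183 genes had a median of 35 labelled reads (20 to 1345.5), against 36.5 in the other 4599 eligible genes. They were also close to the rest in gene structure, with a median coding length of 1152 nt and 4 introns, against 1086 nt and 4 introns. What set them apart followed from the choice itself, since their most-read site held a median of 41.8% of the labelled reads, against 69.6% in the other genes. They had a median of 4 sites with at least 5% of the reads, against 3, and in 52 of the 183 genes (28.4%) at least 3 sites reached 20%. A median of 30.4% of each gene's labelled reads (0% to 60%) ended at neither site of the pair, so that the pair is a simplification of a wider spread of ends. The sites themselves were stretches rather than points, with a median width of 15 nt for proximal and 14 nt for distal sites.

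The paired sites lay a median of 120 nt apart on the genome (quartiles 109 and 146, range 100 to 1465). The distances were crowded at the lower limit, with 91 genes under 120 nt, 41 at 150 nt or more and 20 at 200 nt or more. Measured along the spliced transcript, the 3′ UTR had a median length of 143 nt at the proximal site (quartiles 108 and 182) and 267 nt at the distal site (quartiles 229 and 309). The other eligible genes had a median of 182 nt at their most-read site, between these 2 values. The longer UTR was a median of 1.85 times the shorter one. At the short end, reads of AT5G21105, annotated as an ascorbate oxidase, ended 3 nt past the stop codon at the proximal site and 143 nt past it at the distal site, and those of PMR5 ended 9 and 148 nt past it.

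**Figure D1:**
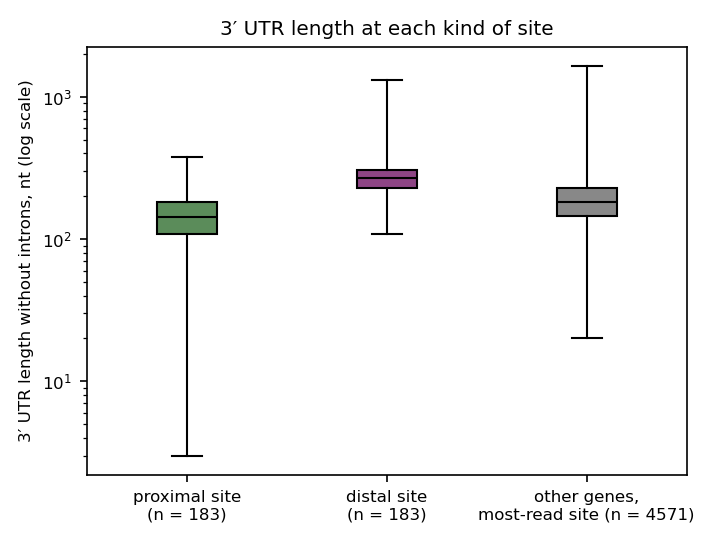
3′ UTR length without introns, in nt on a log scale, at the proximal and the distal site of the 183 genes and at the most-read site of 4571 other eligible genes that had a site past the stop codon. Boxes run between the quartiles with a line at the median (143, 267 and 182 nt), and whiskers reach the lowest and highest values.

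Each site of a pair had to hold a minimum share of the gene's reads, so genes with nearly all reads at a single site were left out beforehand. The lack of a dominant site within a gene thus follows from the choice of genes, which also limited the range of the distal share. The distal share had a median of 50% over the 183 genes (quartiles 40 and 59.6, range 22.5 to 77.3), with 90 genes above 50%. At a median of 25 reads in the pair, the 95% Wilson interval, which covers counting error only, was a median of 35.0 percentage points wide. It lay wholly above 50% in 26 genes and wholly below it in 22. Since the same reads chose the genes and their pairs, these counts are a description and not a test of preference. Summed over all genes, the proximal sites held 2241 labelled reads and the distal sites 2090 in replicate 1, and in replicate 2 they held 2099 and 2036. The distal sites thus took 48.3% (95% Wilson interval 46.8 to 49.7) of the summed reads in replicate 1 and 49.2% (47.7 to 50.7) in replicate 2. ATA20 alone supplied 814 of the proximal reads, and without it these shares were 51.2% and 53.0%.

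The ends of the most-read genes fell in the same places in both libraries. ATA20, named as an anther gene, had 380 and 434 proximal reads and 136.5 and 161 distal reads in replicates 1 and 2, and was the most-read member of the set. Its distal share was 26.4% in replicate 1 and 27.1% in replicate 2, with the sites 200 nt apart and UTRs of 64 and 264 nt. The proximal site of ATA20 was the widest of the set, 115 nt, and another 447 reads without a 3′ label ended inside it, against 5 at its distal site. When reads without a label were counted too, the distal share of ATA20 was 19.3%. PPME1, a pectin methylesterase of pollen, had the reverse balance, with 113 and 90 proximal reads against 176 and 125 distal reads and a distal share of 60.9% and 58.1%. Unlabelled reads at PPME1 numbered 1 at the proximal and 69 at the distal site. PRXR1, a peroxidase, had a distal share of 62.9% in replicate 1 and 69.5% in replicate 2, with UTRs of 220 and 341 nt.

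**Figure D2:**
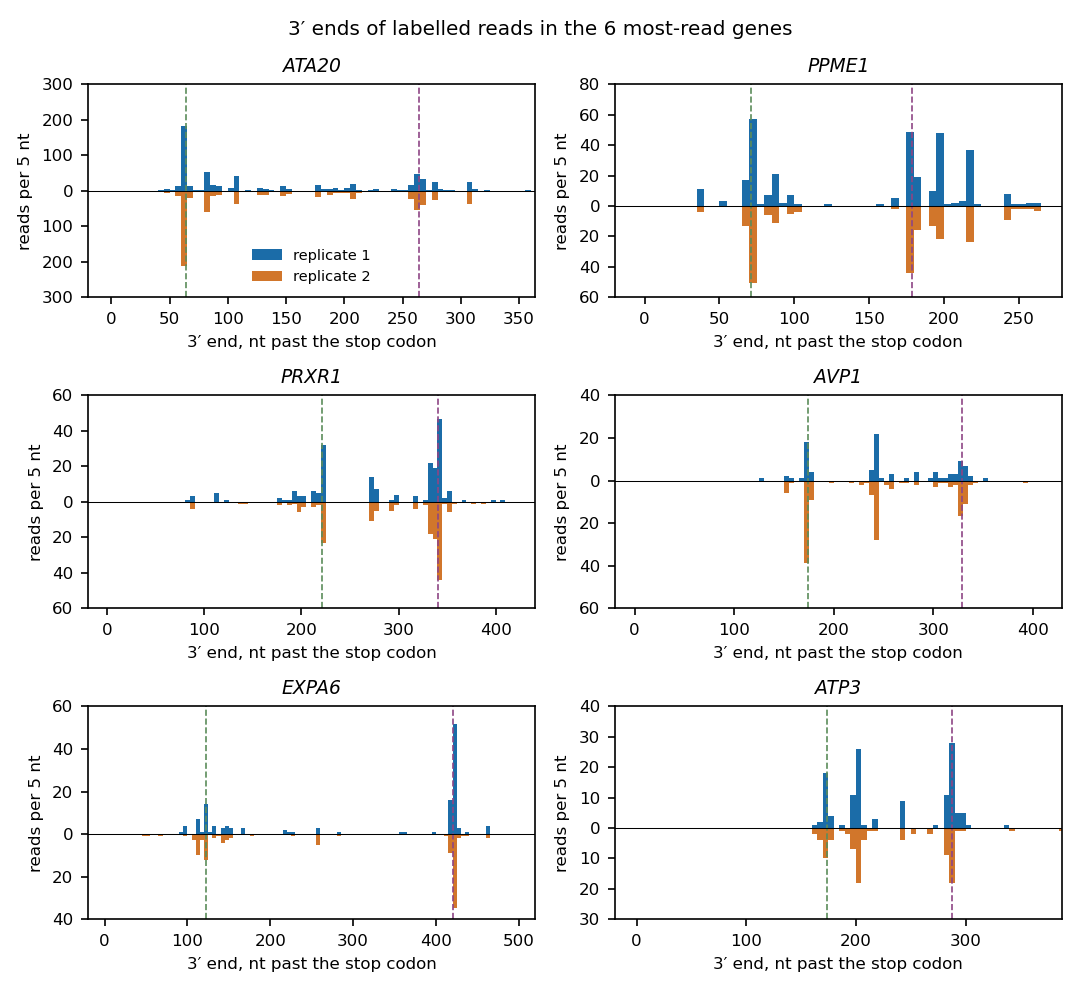
Number of labelled reads per 5 nt (y axis) by the distance of their 3′ end from the stop codon in nt on the genome (x axis), for the 6 genes with the most reads, with replicate 1 above and replicate 2 below the zero line. Dashed lines mark the proximal (left) and distal (right) site. The same clusters appear in both replicates, and ATA20, PRXR1, AVP1 and ATP3 have further clusters between the paired sites.

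Several genes of primary metabolism and energy supply were among the 12 with the most reads. AVP1, the proton-pumping pyrophosphatase of the vacuole, had a distal share of 57.4% in replicate 1 and 45.8% in replicate 2, with sites 155 nt apart. Another 41% of its reads ended elsewhere, many around 240 nt past the stop codon, between the sites. In all, AVP1 had 3 sites with at least 20% of the reads. ATP3, the gamma subunit of the mitochondrial ATP synthase, had a distal share of 67.1% and 60.8%, and 42.5% of its reads likewise ended elsewhere. FAD6, a fatty acid desaturase of the chloroplast, had 55.4% and 63.8%, with only 4.63% of its reads outside the pair. In PDH-E1 ALPHA, a subunit of the plastid pyruvate dehydrogenase, the distal share was 67.4% and 70.4%, the highest of these 12 genes in each replicate. NADP-ME4, a malic enzyme, was near balance, at 54.9% and 46.1%.

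The remaining members of the 12 most-read genes belong to cell walls, flavonoids, the cytoskeleton and auxin response. EXPA6, an expansin that loosens cell walls, had sites 298 nt apart and UTRs of 122 and 420 nt, the largest distance among these 12. It had 42 and 41 proximal reads against 72 and 49 distal reads in replicates 1 and 2, a distal share of 63.2% and 54.4%. FLS1, a flavonol synthase, was used mostly at the proximal site, with 64 and 46 reads there against 26 and 10 at the distal site. Its distal share of 24.7% over both replicates (95% Wilson interval 18.4 to 32.2) was the fourth lowest of the 183. ACT2, an actin of vegetative tissues, stood at 53.7% and 51.9%, and IAA9, a repressor of auxin-responsive transcription, at 51.3% and 50%. For both of these genes the interval spanned 50%.

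**Figure D3:**
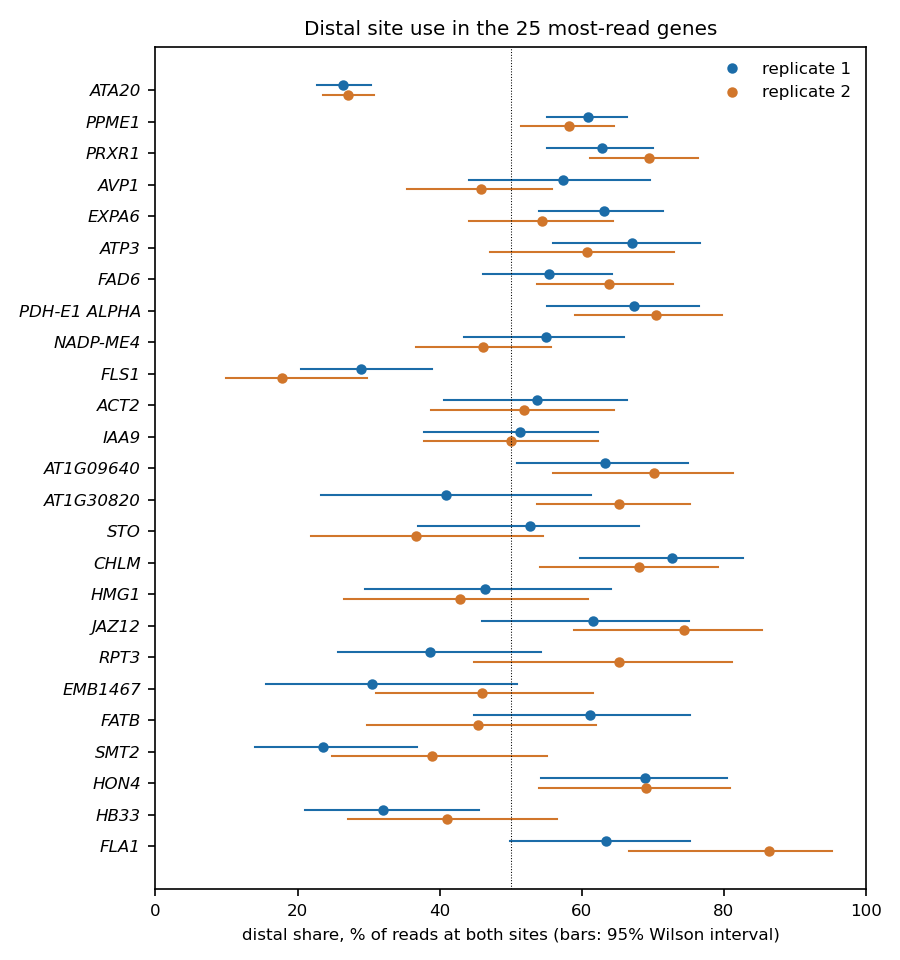
Distal share, as a percent of the reads at both sites, in replicate 1 and replicate 2 of the 25 genes with the most labelled reads, ordered by reads from the top. Points are single libraries and bars their 95% Wilson intervals, and the dotted line marks 50%. ATA20 and FLS1 lie to the left of the line in both replicates, and PRXR1 and PDH-E1 ALPHA to the right.

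The replicates were compared gene by gene with a two-sided Fisher's exact test on the proximal and distal reads, over all 1339 eligible genes with a pair of sites at least 100 nt apart whose lesser site held at least 5% of the reads. After Benjamini-Hochberg adjustment over all of them, no gene differed at 0.05, that is 0% of those tested and 0 of the 183. Without adjustment, 21 genes (1.57%) passed 0.05, and 2 of the 183 were among them, a share of 1.09% that lies near this background. These were AT4G10450, a ribosomal protein of the L6 family, with a distal share of 22.2% in replicate 1 and 64.3% in replicate 2 (unadjusted exact p = 0.0293), and AT2G03550, an alpha/beta-hydrolase, with 40% and 100% (unadjusted exact p = 0.0338). Both had few reads, 40 and 20 in all. At these depths a missing call leaves room for sizeable differences. The distal share differed between the replicates by a median of 11.1 percentage points over 182 genes (at most 60), by 10 points or less in 88 and by over 30 points in 18. It was higher in replicate 2 in 98 genes and lower in 78. Both sites had reads in both replicates in 177 of the 183 genes. XPO1A, exportin 1A, had reads at the pair in replicate 2 only.

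**Figure D4:**
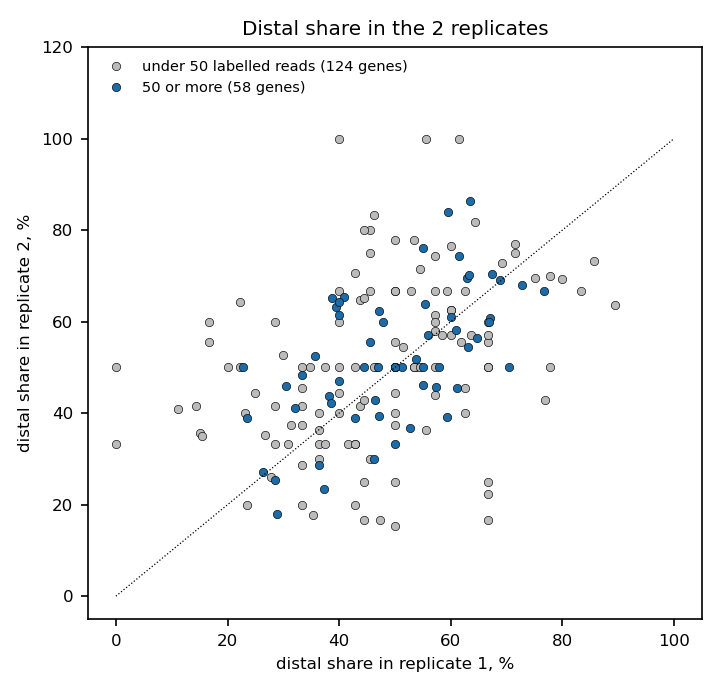
Distal share in replicate 1 (x axis) and replicate 2 (y axis), in percent, for the 182 genes with reads at the pair in both libraries. Blue points are the 58 genes with at least 50 labelled reads and grey points the 124 with fewer, and the dotted line marks equal shares. The points far from the line are mostly grey.

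The number of reads also limited membership itself. Of the 183 genes, 62 had at least 20 labelled reads in each replicate alone, and 30 of these 62 qualified in each replicate alone. The thresholds cut through a continuum of genes. AT1G04340, AT1G27435 and ILL6 were just inside the limit on the share, each with 20% of its reads at the lesser site, and GME with 19.8%, AT1G04680 with 19.8% and KIS with 19.7% were just outside. The lesser site held under 22% in 50 of the members, and between 18% and 20% in 51 genes that did not qualify. For the distance, AT2G05920, AT3G51510 and GR were just inside at 100 nt, and AT2G42220, AT2G45850 and AT5G06700 just outside at 99 nt. A further 1780 eligible genes had 2 sites with at least 20% of the reads that were closer together than 100 nt.

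The genes with the largest distances were mostly thinly covered. In AT3G49550, an uncharacterized gene with 20 reads, the sites lay 1465 nt apart and the distal one was 1463 nt past the last annotated end. Its distal share rested on 9 reads, 4 proximal and 5 distal, and all reads at the distal site had an intron in the 3′ UTR. AT3G21215, an RNA-binding protein with 25 reads, had sites 791 nt apart without an intron and UTRs of 254 and 1044 nt. It had 3 and 5 proximal reads against 3 and 4 distal reads in replicates 1 and 2. AT3G26510, with a Phox/Bem1p domain, had sites 604 nt apart and a distal share of 42.9% in replicate 1 and 20% in replicate 2. TIC, TIME FOR COFFEE, a component of the circadian clock, had sites 291 nt apart with 1 and 4 proximal reads against 0 and 4 distal reads, so that its distal site was seen in replicate 2 only.

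In a few genes the pair of sites went with splicing of the 3′ UTR. An intron past the stop codon was present in at least 50% of the reads at the proximal site of 5 genes (2.73%) and at the distal site of 13 (7.10%), against 3.0% of the other eligible genes at their most-read site. In 5 genes the proximal site lay inside an intron that at least 50% of the distal reads had removed. Those distal reads thus lack the proximal site, and the pair is not tandem in 1 exon. These genes were CHLM, AT1G65270, Lhca5, AT2G02570 and NF-YC9. CHLM, the magnesium-protoporphyrin IX methyltransferase of chlorophyll synthesis, was the best covered, with 128 reads. It had 15 and 16 proximal reads against 40 and 34 distal reads, a distal share of 72.7% in replicate 1 and 68% in replicate 2, and 98.6% of the distal reads were spliced across the proximal site. The sites of CHLM were 367 nt apart on the genome, whereas the UTRs, of 126 and 251 nt, differed by 125 nt. For Lhca5, a light-harvesting protein of photosystem I, a genomic distance of 277 nt left UTRs of 90 and 109 nt. AT1G65270, annotated as a subunit of the ER membrane protein complex, was the one gene whose distal site gave the shorter spliced UTR, with 231 nt at the proximal and 203 nt at the distal site.

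Other features of the reads were compared between the 2 sites. The most-read chain of coding introns among capped reads was identical at both sites in 172 of 182 genes. BIM1 was not counted because it had no capped reads at either site. Less common chains were not compared, and 13 of the 183 genes have no annotated intron that could differ. The cap label, an untemplated G at the 5′ end, was carried by 58.4% of proximal and 58.6% of distal reads in replicate 1 and by 62.0% and 59.7% in replicate 2. The other eligible genes carried it on 59.5% of reads in replicate 1 and 60.9% in replicate 2. AVP1 was an exception among the most-read genes, with the cap label on 39.1% and 60.4% of proximal reads in replicates 1 and 2 and on 19.4% and 42.0% of distal reads. Aligned reads had a median length of 1341 nt at proximal and 1385 nt at distal sites in replicate 1, and of 1347 and 1524 nt in replicate 2. These medians pool the reads of all genes, so that they also depend on which genes supply the reads. ATA20, with 814 proximal and 297.5 distal reads, had medians of 1347 and 1546 nt over both replicates. The part of read length in the measured shares was not tested.

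Reads without a 3′ label were counted at the same sites. At proximal sites they made up 8.83% of reads in replicate 1 and 11.1% in replicate 2, and at distal sites 3.06% and 1.69%, against 2.55% at the most-read sites of the other genes. ATA20 accounted for most of the proximal ones, and without it the proximal shares were 0.984% and 0.893%. The distal ones, 66 and 35 reads in replicates 1 and 2, came largely from PPME1, which held 69 of them over both replicates. No proximal or distal peak had 12 or more A in the 20 nt of genome downstream, against 1.05% of the most-read sites in the other genes. Sites were called from labelled reads, and the label is removed at A-rich ends, so low values were set beforehand. The 95% Wilson interval, 0% to 2.06% at either kind of site, also spans the 1.05%.

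The annotation held the longer of the paired ends far more often than the shorter. A RefSeq 3′ end lay within 50 nt of the proximal site in 9 of the 183 genes (4.92%) and of the distal site in 94 (51.4%), against 39.1% of the most-read sites of the other genes. Both sites were annotated in 4 genes, the proximal alone in 5, the distal alone in 90 and neither in 84. Of the 183 genes, 70 had 2 or more annotated 3′ ends, and in 42 these lay 100 nt or more apart. A gene with a single annotated end could hardly have both sites annotated, so the first count was limited beforehand. AT1G09640, the gamma chain of elongation factor EF1B with 143.5 reads, was one of the 5, with an annotated end 5 nt from its proximal and 100 nt from its distal site. The proximal site lay a median of 204 nt and the distal site a median of 72 nt inside the last annotated end, and the most-read site of the other genes 99 nt. Distal sites reached past the last annotated end in 12 genes, and by over 50 nt in 3 of them, PRF4 (59 nt), AT1G02040 (103 nt) and AT3G49550. In 22 genes (12%) the distal site lay within another protein-coding gene, on the opposite strand in every case, against 12.5% in the other genes. The next protein-coding gene downstream lay a median of 546 nt past the distal site, against 362 nt past the most-read site of the other genes.

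The canonical hexamer was uncommon at both sites. Between 10 and 40 nt upstream on the strand of the gene, AATAAA was found at 16 proximal sites (8.74%, 95% Wilson interval 5.45 to 13.7) and 27 distal sites (14.8%, 10.3 to 20.6), against 12.2% of the most-read sites in the other genes and 0.272% of the last 31 coding bases of eligible genes. Of the 183 pairs, 3 had it at both sites, 13 at the proximal only, 24 at the distal only and 143 at neither. The distal share had a median of 38.1% (range 24.7 to 72) in the 13 genes with AATAAA at the proximal site only. In the 24 with it at the distal site only, the median was 41.9% (27.1 to 77.3). It was 70.8% (62.5 to 71.9) in the 3 with AATAAA at both and 50.2% (22.5 to 74.1) in the 143 with it at neither. The ranges of these groups overlapped widely. AATAAA or a hexamer with 1 base changed was found at 47.5% of proximal and 57.4% of distal sites, against 49.6% in the other genes and 11.9% in coding ends. TGTA, which is part of none of these hexamers but may share bases with one beside it, was found in the same window and on the same strand at 19.1% of proximal and 25.7% of distal sites, against 19.8% in the other genes and 8.26% in coding ends. The intervals of proximal and distal sites overlapped for each of these 3 searches. The coding ends were not matched to UTRs in base composition, so that the differences from them are not a measure of enrichment.

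Base composition showed the layout common to plant sites at both members of the pair, with an A-rich stretch 10 to 30 nt upstream and T-rich sequence on both sides of the cut. The downstream side differed most. In the 20 nt past the cut, A made up 23.2% of bases at proximal and 30.6% at distal sites, against 29.5% in the other genes, and T made up 44.3% and 39.6%, against 40.5%. Over 100 nt downstream, A was 27.1% at proximal and 32.8% at distal sites, against 32.4% in the other genes. The sequence past a proximal site is itself 3′ UTR up to the distal site, whereas that past a distal site is mostly beyond the transcript. The stretch between the sites was 67.1% A or T over 26985 bases, close to the 66.8% between the stop codon and the proximal site and to the 67.0% of UTRs in the other genes. Among short elements known from UTRs, ATTTA, part of AU-rich elements, was found on the strand of the gene in the 100 nt before 25.1% and past 20.2% of proximal sites, against 24.3% before and 25.9% past the sites of the other genes. TGTANATA, the Pumilio motif, was found in the 100 nt before 7 proximal sites (3.83%, 95% Wilson interval 1.87 to 7.68) and past 2 (1.09%, 0.300 to 3.90), against 2.56% before and 1.88% past the sites of the other genes.

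**Figure D5:**
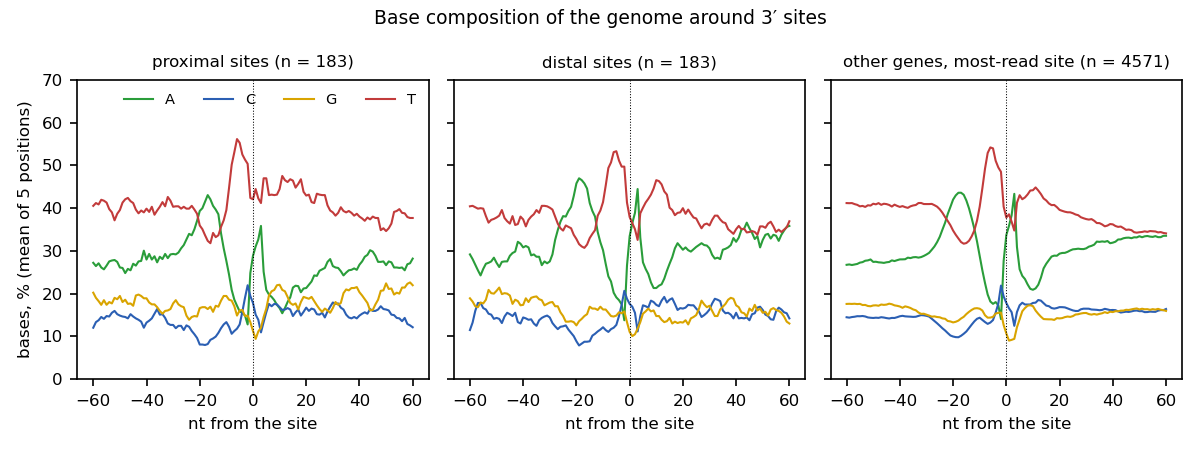
Share of each base in percent (mean of 5 neighbouring positions, y axis) by distance from the site in nt (x axis), at the proximal and distal sites of the 183 genes and the most-read sites of 4571 other genes. Negative distances are upstream and the dotted line marks the last aligned base. A peaks upstream in each panel, and past the site A stays lower at proximal sites than at distal sites. Templated A at the cut are trimmed with the tail, so that the positions next to the line reflect the trimming too.

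By the words of their RefSeq product names, 146 of the 183 genes fell into none of 11 functional classes. The others were spread thinly, with 7 kinases (3.83% of the set, against 4.37% of all eligible genes), 6 RNA-binding and splicing proteins (3.28% against 2.22%), 5 transcription factors (2.73% against 2.07%) and 3 ribosomal proteins (1.64% against 5.37%). The classes rest on words alone, and PCK1, a carboxykinase, and AVP1, a pyrophosphatase, were caught among kinases and phosphatases. Their median distal shares ran from 39.4% in the 2 photosynthesis genes to 66.4% for the single translation factor AT1G09640, and were 57.7% in the kinases, 56.5% in the transcription factors and 51.5% in the RNA-binding proteins.

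Among transcription factors, AP1, the MADS-box factor that sets floral meristem identity, had 13 and 12 proximal reads against 16.5 and 16 distal reads in replicates 1 and 2. Its distal share was 55.9% and 57.1%, nearly equal in the 2 libraries, with sites 137 nt apart and UTRs of 119 and 243 nt. HB33, a homeodomain protein, was used more at the proximal site, with a distal share of 32.1% and 41%. HON4, placed in this class by its product name alone, was used more at the distal site, with 68.9% and 69.0%. TCP15, a regulator of growth in leaves and flowers, had 31.4% and 37.5% with sites 208 nt apart. In GAI, a repressor of gibberellin responses, the share was 66.7% and 55.6%, from 9 reads in each library.

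In 5 genes of signalling the distal share ran from 40% to 71.4% over both replicates. HXK1, the hexokinase that also senses glucose, had a distal share of 45.5% in replicate 1 and 55.6% in replicate 2. The phosphatase ABI1, a negative regulator of abscisic acid signalling, had 89.5% and 63.6%, with a single proximal read in replicate 1. The protein kinase AT1G06700 had 60% and 61.1%, AT2G24360 had 53.3% and 50%, and CIPK1, a kinase that binds calcium sensors, had 66.7% and 22.2% from 6 and 9 reads. Of these 5 genes, ABI1 alone had an interval over both replicates that lay above 50% (51.4 to 82.0), again as a description.

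Of the genes classed by product name as RNA-binding and splicing proteins, AT5G56530, AT3G15010 and UBA1A had sites 219, 124 and 114 nt apart. Their distal shares were 62.5%, 56.2% and 35.3% over both replicates, at 32, 30 and 23 reads. The ribosomal proteins AT1G29070 and AT3G20230 had distal shares of 52.6% and 65%. The chaperonin subunit AT3G03960 had 41.5% and HSP91 had 45.7%. Among transporters, PUP6, a purine permease, had 58.3% and 57.1% in replicates 1 and 2, and TDT, the dicarboxylate carrier of the vacuole, had 28.6% and 60%. The intervals of all these genes spanned 50%, so that no preferred site could be told at these depths.

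The highest shares were those of AT5G12950 (77.3%, 95% Wilson interval 63.0 to 87.2), CDS1, which makes CDP-diacylglycerol (74.1%), FTSH1, a protease of the thylakoid (73.9%), and NF-YC9, a subunit of the CCAAT-binding factor NF-Y (73.7%). The lowest were those of AT5G41670, a 6-phosphogluconate dehydrogenase (22.5%, 11.7 to 38.1), CYP81D4, a cytochrome P450 (23.5%), AT2G21520, a Sec14-like protein (24%), and FLS1.

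A few gene families had more than 1 member in the set. They were picked after the values were seen, because they had such members, so that their counts carry no test. Over all eligible genes, 183 of 4782 qualified. Of the 5 DELLA proteins, the repressors of gibberellin signalling, 4 had enough reads and 3 qualified, GAI, RGL1 and RGL2, whereas RGA1 had 8.47% of its reads at the lesser site. RGL2 used the distal site more, with a distal share of 57.1% in replicate 1 and 74.3% in replicate 2, and RGL1 stood at 50% and 33.3%. Of 29 Aux/IAA proteins, repressors of auxin-responsive transcription, 9 had enough reads and 4 qualified, namely IAA9, IAA16, ATAUX2-11 and PAP1 (AT3G16500, also called IAA26). PAP1 had the largest distance of these, 201 nt, and a distal share of 36.4% and 28.6%. IAA8, with more reads than any of them at 155.5, had no pair of sites that far apart. Of 11 ECT proteins, which carry the YTH domain that binds methylated adenosine, 4 had enough reads and ECT2 and ECT5 qualified. ECT2 had the longer UTRs, of 366 and 474 nt, and a distal share of 64.7% and 56.5%, and those of ECT5 were 120 and 285 nt long.

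The genes that make 3′ ends could hardly be examined themselves. Of 26 cleavage and polyadenylation factors and regulators of the reaction, 3 had at least 20 labelled reads, the poly(A)-binding proteins PABN2 (23 reads) and PABN3 (22) and the cleavage factor CFIS2 (22). None of these 3 had a second site at least 100 nt from the first with 1% or more of the reads.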

How the data were processed

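Reads of 2 Iso-seq libraries from Col-0 inflorescences, 1 per biological replicate, were used as deposited. The authors aligned full-length non-chimeric reads to TAIR10 with minimap2 and converted them with Bookend into aligned structures, each with exons, strand, end labels and an expected (estimated) count of reads in which multi-mapping reads are split. These deposited expected counts were not normalized, and fractional counts were kept, since sums and shares of reads are reported. The versions of these tools are not given in the sources used here.

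Structures were assigned to the RefSeq TAIR10.1 gene with the most exonic same-strand overlap. No read passed a chromosome end and 98.2% of introns were GT-AG, so the builds share coordinates. 3′ ends were chained within 10 nt, and the main pair of a gene was the pair of sites at least 100 nt apart with the largest lesser share. UTR lengths are medians of exonic bases past the last stop codon over reads that reach it. A chi-square test over 9937 genes gave a ratio to its degrees of freedom of 1.69, so the libraries differ by more than sampling noise and were kept as 2 replicates. Per library 261570 and 247839 nuclear reads were used, with a median aligned length of 1139 and 1258 nt. PCR reads without molecular identifiers are not independent molecules, so Wilson intervals at 95% cover counting error only.

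Replicates were compared by two-sided Fisher's exact tests on reads rounded to whole numbers, with Benjamini-Hochberg adjustment over 1339 genes. Python 3.11.15, numpy 2.4.6, scipy 1.17.1 and matplotlib 3.10.9 were used, and site calling and the test were tested on simulated data. The simulated pairs for site calling lay farther apart and had more reads than most of the real ones, and no further sites. Genes, product classes and lists were chosen with earlier results of these data known. Named genes are the 12 most-read, the 8 with the largest distances, the 4 highest and 4 lowest distal shares, up to 5 per product class, and 3 on either side of each threshold. Other genes in the text were chosen after their values were seen. Alternatives changed the merging, each threshold, the reads used and the replicates.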

Additional observations from a re-analysis of the deposited data

How the results depend on the processing

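The number of qualifying genes, 183, followed the thresholds. It was 656 with 10% at each site, 48 with 30%, 20 with sites 200 nt apart, 58 with 50 labelled reads, 98 with cap-labelled reads only (64 of them among the 183), 72 without replicate 1 (51 among the 183) and 92 without replicate 2 (66), where fewer genes had enough reads. With ends merged within 25 nt 235 genes qualified, 134 of them shared with the 183, a fixed window around the most-read end gave 139, of which 135 were shared, and adding unlabelled reads gave 221, of which 146 were shared. The median distal share of 50% became 52.9% with merging within 25 nt, 52.6% with 10% at each site, and 52.2% to 52.9% with 1 replicate left out. The median distance of 120 nt became 127 nt with merging within 25 nt, 118 nt with 10% and 117.5 nt with 30% at each site, 229 nt with sites 200 nt apart, 115.5 nt with 50 labelled reads, 122 nt with cap-labelled reads, 123 nt with unlabelled reads added, and 118.5 to 120 nt with 1 replicate left out. Leaving out ATA20, an alternative chosen after seeing the data, turned the summed distal share to above 50%, at 51.2% in replicate 1 and 53.0% in replicate 2. Fisher's exact test made 0 calls between replicates, and also 0 at an adjusted threshold of 0.01, with 10% at the lesser site and with capped reads only.

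Among 62 named genes, the distal share moved by more than the spread between replicates in 25 with capped reads only and in 3 with unlabelled reads added. Merging within 25 nt joined both sites of 13 into 1, ATA20, AVP1, ATP3, PDH-E1 ALPHA, FLS1, ACT2 and IAA9 among them, and moved the share of 16 of the remaining 49. For AVP1 capped reads alone gave a distal share of 37.7%. No paired analysis was possible because there is 1 condition, with no groups to pair. Depth limits the precision, since 125 of the 183 genes had under 50 labelled reads. Causes of these changes were not tested, beyond the smaller numbers of reads or genes that the alternatives leave.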
